A study of Rattus norvegicus with 16 samples.

Results

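Wnt ligands, Frizzled receptors and 2 families of secreted inhibitors, the secreted frizzled-related proteins (Sfrp) and the Dickkopf proteins (Dkk), were followed in RNA from rat glomeruli. The members were the genes of the deposited table whose symbol begins with Wnt, Fzd, Sfrp or Dkk followed by a digit. This gave 37 of the 36351 genes, of which 19 were Wnt, 10 Fzd, 4 Sfrp and 4 Dkk genes. A total of 21 had 10 or more reads in at least 4 of the 16 libraries, namely 9 Wnt, 8 Fzd, 2 Sfrp and 2 Dkk genes. The same 21 were among the 17061 genes tested.

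Wnt proteins are secreted lipid-modified ligands that bind Frizzled receptors together with the coreceptors Lrp5 and Lrp6. In the canonical branch this stabilises beta-catenin, which then acts with Tcf and Lef factors at target genes such as Axin2, and other branches act through cell polarity or calcium. Sfrp proteins hold a Frizzled-like domain and can bind Wnt ligands outside the cell, while Dkk1, Dkk2 and Dkk4 act at Lrp5 and Lrp6 and Dkk3 is a divergent relative. In the glomerulus, beta-catenin signalling in podocytes, the filtering epithelial cells, is known for its link to proteinuria.

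The study compared 4 groups of 4 rats, with glomeruli taken on day 11. Sham rats were healthy and received vehicle by mouth daily. The PAN group received 50 mg/kg of puromycin aminonucleoside (PAN), a podocyte toxin that causes nephrotic syndrome, by tail vein on day 0, followed by the same vehicle. The PAN+MP group received PAN and then 15 mg/kg of the glucocorticoid methylprednisolone daily by intraperitoneal injection, and the PAN+Pio group received PAN and then 10 mg/kg of pioglitazone, which activates PPAR gamma, daily by mouth. The vehicle was given by mouth, so the injection of methylprednisolone had no matching vehicle route in the labels. Strain, age and sex were not stated in the labels. The study asked which PAN changes each drug lessened.

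Libraries held 22802109 to 32571877 counted reads. Podocyte markers summed to 19681 to 34636 CPM, read counts scaled to the same library size, across the libraries, so the defining markers of the labelled tissue were present. Proximal tubule markers summed to 1913 to 7176 CPM, with 0 of 12 called changed between PAN and Sham. Even so, the median log2 change of these 12 markers was 0.69 for PAN against Sham. The same median was 0.71 when PAN+MP, and 0.62 when PAN+Pio, was set against Sham. The lack of calls therefore does not show that tubule content was equal. In bulk RNA, fewer cells of a type and less RNA per cell cannot be told apart. Each gene was tested with edgeR's quasi-likelihood test, with p-values adjusted over the 17061 genes and a gene called changed under 0.05. Levels are CPM ± SD over 4 libraries, and fold changes are log2 values ± SE. CPM is not corrected for gene length, so levels are compared between groups and not between genes. The library numbers below only name columns.

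Of the 21 tested members, 4 were called in at least 1 of the 6 comparisons: Sfrp2, Dkk3, Fzd2 and Wnt11. Sfrp2 and Dkk3 were higher in PAN than in Sham and no member was lower, so 9.52% of members were called against 18.9% of all tested genes, of which 10.4% were higher and 8.52% lower. Under PAN+MP against PAN, Sfrp2 was lower and Fzd2 and Wnt11 were higher, which is 14.3% of members against 8.62% of all genes (3.31% higher and 5.31% lower). Under PAN+Pio against PAN, 1 member, Sfrp2, was lower, 4.76% of members against 3.68% of all genes (0.832% higher and 2.85% lower). The comparisons of each drug group with PAN use the same 4 PAN libraries as the comparison with Sham. The median member differed by 0.08 on the log2 scale in PAN against Sham, where the median of all genes was 0.006.

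Against Sham, the drug groups showed few differences among the members. Dkk3 was higher in PAN+Pio, which is 4.76% of members beside 5.08% of all genes (3% higher and 2.09% lower). In PAN+MP against Sham edgeR called 0 members, where 12.7% of all genes were called (5.98% higher and 6.72% lower), 4 members were under an unadjusted p of 0.05 and DESeq2 called 0. In PAN+Pio against PAN+MP edgeR called 0 members beside 0.633% of all genes (0.428% higher and 0.205% lower), with 3 members under an unadjusted p of 0.05 and 0 called by DESeq2.

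**Figure D1:**
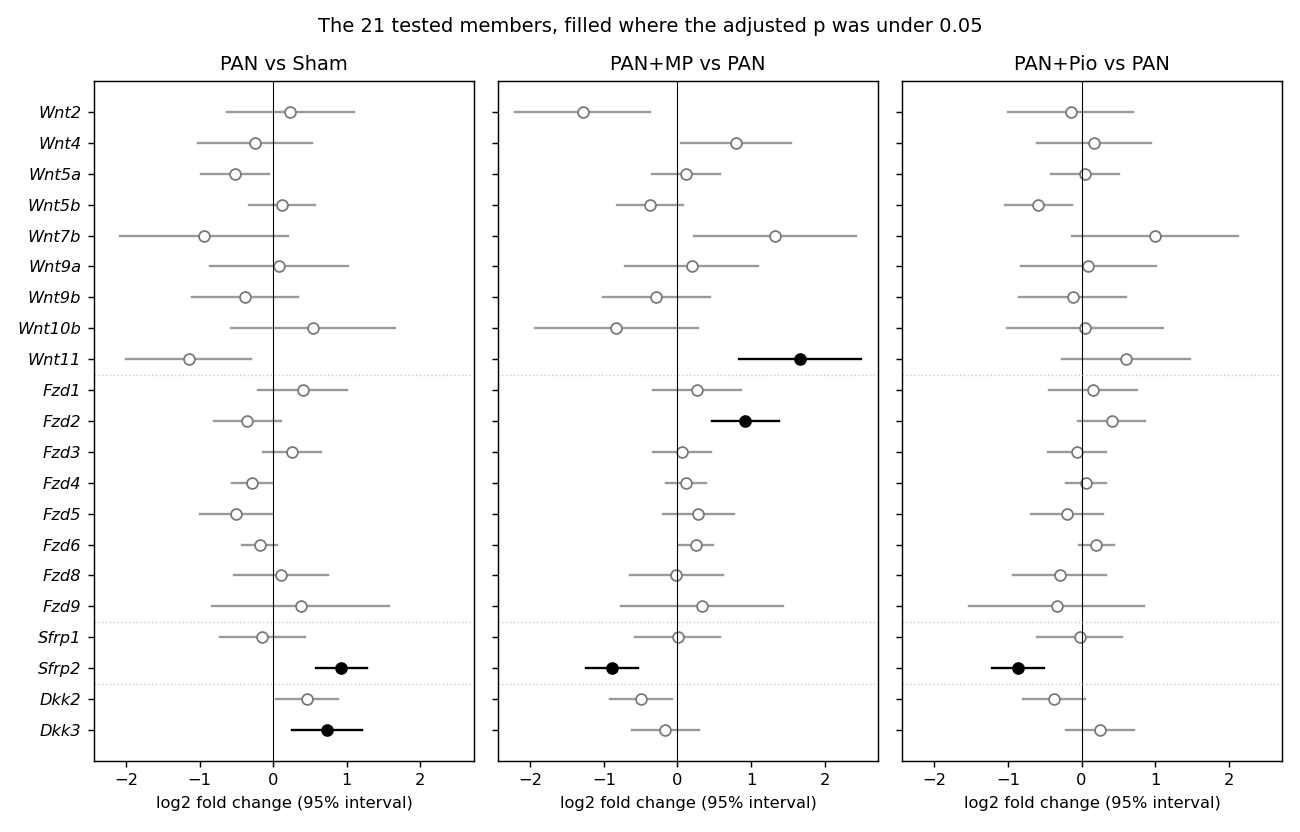
Log2 fold change (x axis) with its 95% interval for the 21 tested members in PAN against Sham, PAN+MP against PAN and PAN+Pio against PAN, 4 libraries a group. Filled points had an adjusted p under 0.05, namely Sfrp2 in all 3 panels, Dkk3 in the first and Fzd2 and Wnt11 in the second.

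Wnt2, Wnt4, Wnt5a, Wnt5b, Wnt7b, Wnt9a, Wnt9b, Wnt10b and Wnt11 passed the count minimum, and Wnt1, Wnt2b, Wnt3, Wnt3a, Wnt6, Wnt7a, Wnt8a, Wnt8b, Wnt10a and Wnt16 did not. No gene below the minimum had more than 7 reads in any library. Of the 9 tested ligands, edgeR called 0 in PAN against Sham, with 2 under an unadjusted p of 0.05, and DESeq2 called 1, Wnt11, where edgeR called 18.9% and DESeq2 23.7% of all genes. Most were scarce: Wnt2, Wnt4, Wnt7b, Wnt9a, Wnt10b and Wnt11 had 50 or fewer reads in every library.

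Wnt11, a ligand known mainly for acting through cell polarity rather than beta-catenin, was the ligand that passed the test. Its promoter is shown as the 250 bases before the gene start in RefSeq (build GRCr8, chr1:162549110-162549359, plus strand), with CpG dinucleotides, which are frequent in promoters of developmental genes, in capitals.
Wnt11: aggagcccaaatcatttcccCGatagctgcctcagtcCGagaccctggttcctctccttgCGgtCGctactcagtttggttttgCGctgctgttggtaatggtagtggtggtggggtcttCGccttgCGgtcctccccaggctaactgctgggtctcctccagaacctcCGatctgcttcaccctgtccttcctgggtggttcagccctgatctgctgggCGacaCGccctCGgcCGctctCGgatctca
It held 13 CpG dinucleotides and 60% G or C, more CpG than 68.4% of the 27457 RefSeq promoters read this way.

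The Wnt11 reads numbered 20, 20, 21 and 36 in the Sham libraries. In the PAN libraries they numbered 3, 10, 18 and 17. In PAN+MP they numbered 42, 39, 50 and 44. In CPM the 4 PAN+MP libraries lay above every PAN and PAN+Pio library and overlapped Sham through Sham library 4, and the 4 PAN libraries lay below every Sham library. In PAN against Sham 2 of the 21 members had non-overlapping groups, where 20.5% of all genes did. In PAN+Pio the reads numbered 9, 17, 14 and 29, overlapping both Sham and PAN.

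In CPM, Wnt11 stood at 0.988 ± 0.281 in Sham, 0.440 ± 0.247 in PAN, 1.42 ± 0.167 under PAN+MP and 0.674 ± 0.306 under PAN+Pio (SD, n = 4 each). PAN+MP exceeded PAN by 1.67 ± 0.39 on the log2 scale, 3.18-fold (adjusted p = 0.0131). PAN against Sham gave -1.15 ± 0.40 (95% interval -1.997 to -0.300), which missed the threshold in edgeR (adjusted p = 0.0557) and passed it in DESeq2 (-1.17, adjusted p = 0.0216). PAN+Pio against PAN gave 0.60 ± 0.41 (adjusted p = 0.537). The difference between the drug groups, PAN+Pio against PAN+MP, was -1.07 ± 0.38 (95% interval -1.86 to -0.27, adjusted p = 0.351), with all 4 PAN+Pio libraries below all 4 PAN+MP libraries. Of the 21 members, 4 had non-overlapping drug groups (Fzd2, Fzd5 and Wnt11 lower and Wnt2 higher in PAN+Pio), where 6.97% of all genes did.

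**Figure D2:**
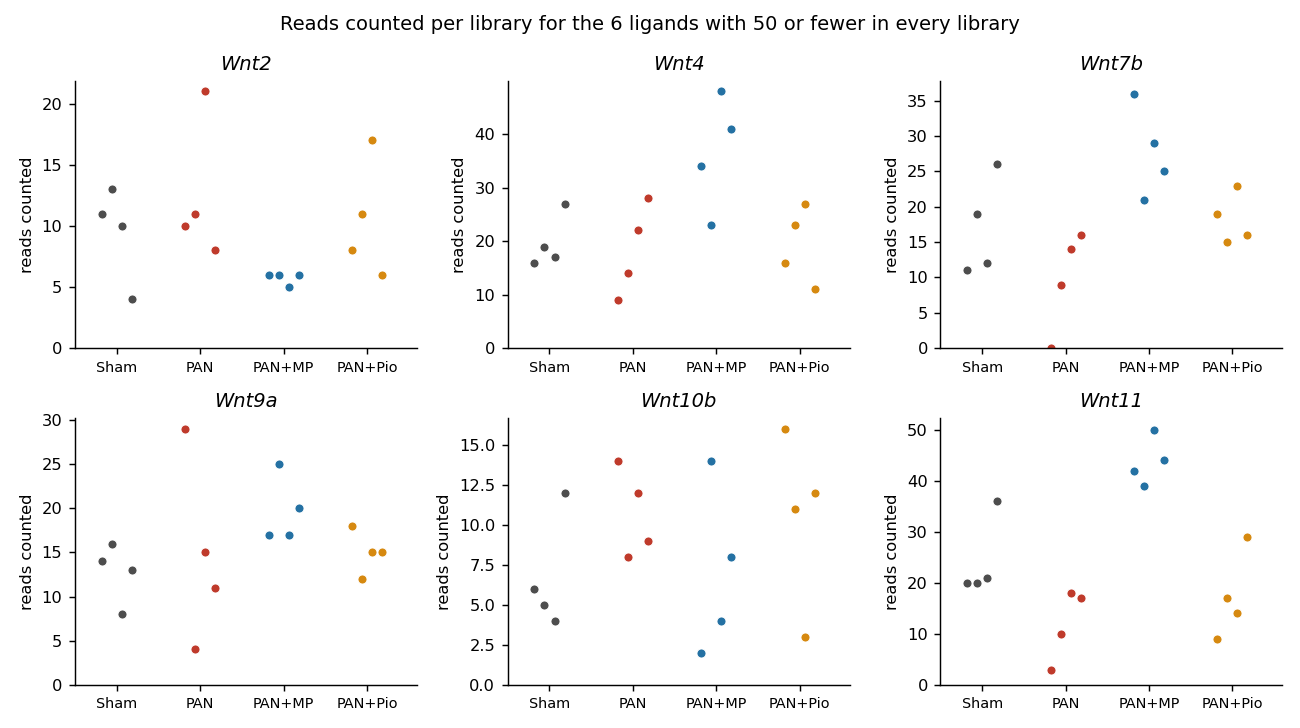
Reads counted in each library (y axis, one point per library) for the 6 ligands with 50 or fewer reads in every library, by group. Wnt11 reaches 39 to 50 reads in PAN+MP and 3 to 18 in PAN, while the groups of Wnt9a and Wnt10b overlap.

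Wnt7b and Wnt4, both expressed in kidney epithelia, likewise had their highest group mean in PAN+MP and their lowest in PAN, without passing the test. Wnt7b had 0, 9, 14 and 16 reads in the PAN libraries and 36, 21, 29 and 25 in PAN+MP, and the groups did not overlap. The change was 1.33 ± 0.52 (adjusted p = 0.143), and PAN against Sham gave -0.94 ± 0.54 (adjusted p = 0.227). Wnt4 gave 0.80 ± 0.35 in PAN+MP against PAN (adjusted p = 0.202). Wnt2, a canonical ligand, went the other way, with 6, 6, 5 and 6 reads in PAN+MP, below every PAN library, and a change of -1.29 ± 0.43 (adjusted p = 0.0797). In all, 5 of the 21 members had non-overlapping PAN+MP and PAN libraries, where 15.8% of all genes did.

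Wnt5a, the prototype of ligands that act without beta-catenin, measured 11.8, 9.33, 18.1 and 12.8 CPM in Sham and 12.5, 8.45, 7.62 and 7.81 CPM in PAN. In PAN+MP it measured 11.6, 7.49, 8.31 and 12.0 CPM and in PAN+Pio 11.5, 8.59, 9.46 and 8.18 CPM. All groups overlapped, and PAN against Sham gave -0.52 ± 0.22 (adjusted p = 0.107).

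Wnt5b, its close relative, gave -0.59 ± 0.22 in PAN+Pio against PAN (adjusted p = 0.170). Wnt9b, which drives nephron formation in the embryo, had 78 to 314 reads per library and no call in any comparison. The GRCr8 annotation places Wnt9b next to Wnt3, which had 0 to 2 reads, and Wnt9a (4 to 29 reads) next to Wnt3a (0 to 1). Wnt10b (2 to 16 reads) neighbours Wnt1 (0 to 2 reads).

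Among the receptors, Fzd1, Fzd2, Fzd3, Fzd4, Fzd5, Fzd6, Fzd8 and Fzd9 passed the minimum, and Fzd7 and Fzd10 did not. Fzd9 passed with exactly 4 libraries and 2 to 23 reads. In PAN against Sham edgeR called 0 of the 8, with 2 under an unadjusted p of 0.05, and DESeq2 called 0, beside the same 18.9% and 23.7% of all genes. Their fold changes were more precise than those of the scarce ligands, with SE of 0.11 to 0.30 on the log2 scale without Fzd9, against 0.37 to 0.54 for the 6 scarce ligands.

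Fzd2, a receptor that can pass on Wnt5a signals, was higher under methylprednisolone. It measured 91.9, 110.3, 115 and 101 CPM in PAN+MP. The PAN libraries measured 66.7, 41.9, 49.2 and 62.4 CPM. Sham libraries measured 59.6, 87.8, 48.1 and 86.0 CPM and PAN+Pio libraries 82.1, 71.5, 46.9 and 91.6 CPM. All 4 PAN+MP libraries were above every library of the other groups, and the other groups overlapped each other. In PAN+MP against Sham 1 of the 21 members had non-overlapping groups, where 20.6% of all genes did.

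The Fzd2 change in PAN+MP against PAN was 0.92 ± 0.21 (1.90-fold, adjusted p = 0.0124). PAN against Sham gave -0.35 ± 0.21 (adjusted p = 0.254) and PAN+Pio against PAN gave 0.41 ± 0.21 (adjusted p = 0.380). PAN+MP against Sham gave 0.57 ± 0.21 (adjusted p = 0.0858). The drug groups differed by -0.52 ± 0.21 for PAN+Pio against PAN+MP (95% interval -0.97 to -0.06, adjusted p = 0.475).

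The remaining Frizzled genes showed no call. Fzd5 measured 19.0 ± 7.30 CPM in Sham, 13.4 ± 2.12 in PAN, 16.2 ± 2.64 under PAN+MP and 11.7 ± 1.48 under PAN+Pio. PAN+Pio against Sham gave -0.70 ± 0.23 for Fzd5 (adjusted p = 0.0861), which DESeq2 called. Fzd4, the receptor for norrin in endothelium, gave -0.29 ± 0.13 in PAN against Sham (adjusted p = 0.126). Fzd1 measured 44.5 ± 15.2 CPM in Sham and 58.8 ± 25.3 in PAN, a difference of 0.40 ± 0.28 (adjusted p = 0.332).

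Fzd6 measured 35.8 ± 4.14 CPM in Sham, 31.5 ± 3.20 in PAN, 37.6 ± 1.82 under PAN+MP and 36.2 ± 5.49 under PAN+Pio. Fzd3 lay between 8.33 and 10.3 CPM in group mean and Fzd8 between 3.15 and 3.88 CPM. No comparison of these 3 receptors passed the test.

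Of the Sfrp genes, Sfrp2 was higher in PAN than in the other 3 groups. Sfrp1 passed the minimum as well, and Sfrp4 and Sfrp5 did not. Sfrp5 had 0 reads in all 16 libraries, and a floor of 3 reads per library corresponds to 0.0921 to 0.132 CPM. The Sfrp2 promoter is shown in the same way as that of Wnt11 (GRCr8, chr2:171387286-171387535, plus strand), because Sfrp2 was called in more comparisons than any other member.
Sfrp2: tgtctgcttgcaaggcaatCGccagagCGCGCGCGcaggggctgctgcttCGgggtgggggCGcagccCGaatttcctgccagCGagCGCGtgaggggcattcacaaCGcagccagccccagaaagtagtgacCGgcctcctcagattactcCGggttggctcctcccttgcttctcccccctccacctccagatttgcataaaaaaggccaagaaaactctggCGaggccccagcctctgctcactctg
It held 15 CpG dinucleotides, more than 72.3% of all promoters, and 62.4% G or C. The 12 tested members with a promoter in RefSeq held 13 to 47 CpG, with a median of 23, where the median of all promoters was 6. Neither strand of these 12 windows held the Tcf and Lef core words CTTTGA or CTTTGT, which 13.8% and 15.9% of all promoters hold, or the glucocorticoid receptor word AGAACA, held by 17.1%. They also held no TATAAA (13.1% of all promoters) and no PPAR repeat, the word AGGTCA in tandem with a single base between (0.0546%). These are matches of letters in a window and say nothing on binding. With only 12 windows, richer in CpG than most, the absence of these words cannot be read as depletion. The called members Dkk3 and Fzd2 had no RefSeq promoter entry and are not among the 12.

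Sfrp2 measured 144, 175, 230.0 and 125 CPM in the Sham libraries. In PAN it measured 331, 392, 274 and 283 CPM. In PAN+MP it measured 154, 164, 199 and 174 CPM, and in PAN+Pio 180.3, 189, 148 and 185 CPM. All 4 PAN libraries lay above all others, and both drug groups lay within the range of Sham. In PAN+Pio against PAN 1 of the 21 members had non-overlapping groups, where 10.7% of all genes did.

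The PAN mean of 319.9 ± 54.3 CPM was 1.90-fold the Sham mean of 169 ± 45.8 CPM in the fitted model, a log2 change of 0.92 ± 0.16 (95% interval 0.57 to 1.27, adjusted p = 0.00112). PAN+MP stood at 173 ± 19.1 CPM, -0.89 ± 0.16 against PAN (adjusted p = 0.00241). PAN+Pio stood at 176 ± 18.8 CPM, -0.86 ± 0.16 against PAN (adjusted p = 0.00827). Against Sham the difference was 0.04 for PAN+MP (95% interval -0.31 to 0.38, adjusted p = 0.903) and 0.06 for PAN+Pio (-0.29 to 0.41, adjusted p = 0.853). Between the drugs it was 0.02 (-0.32 to 0.37, adjusted p = 0.993). The 3 changes against or from PAN were called under all 23 alternatives tried.

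**Figure D3:**
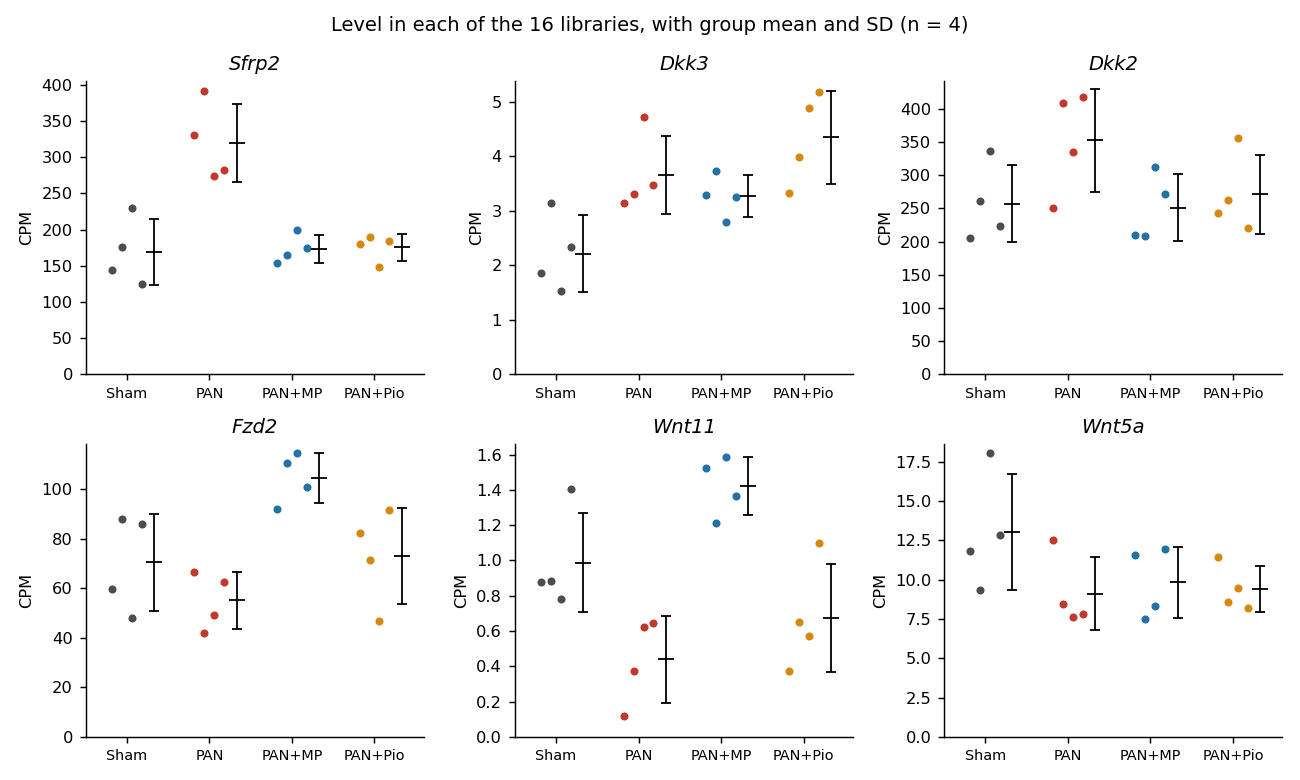
CPM in each of the 16 libraries (points, y axis) with the group mean and SD (bars, n = 4) for the 4 members called in any comparison and for Dkk2 and Wnt5a. Sfrp2 is at 274 to 392 CPM in PAN and 125 to 230.0 CPM elsewhere, and Fzd2 and Wnt11 have their highest group means in PAN+MP.

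Sfrp1 measured 4.65 ± 1.37 CPM in Sham, 4.19 ± 1.17 in PAN, 4.19 ± 1.24 under PAN+MP and 4.12 ± 0.933 under PAN+Pio. No comparison called it. Its group means differed by less than the SD within each group.

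The summed levels of several marker lists differed between the same groups as Sfrp2. Mesangial markers (Pdgfrb, Itga8, Gata3, Agtr1a, Rgs5 and Des) summed to 1301 to 2026 CPM in Sham, 1994 to 3105 in PAN, 1377 to 1530 under PAN+MP and 1375 to 1549 under PAN+Pio. Of these 6 markers, 1 was higher in PAN than in Sham, and their median log2 change was 0.17, so the sum does not speak for each marker. Under each drug 3 were lower than in PAN, and against Sham 1 was higher and 2 were lower. Fibroblast markers summed to 58.4 to 78.1 CPM in Sham, 124 to 518 in PAN, 88.8 to 198 under PAN+MP and 134 to 333 under PAN+Pio, with 2 of 5 tested markers higher in PAN and 0 changed under either drug. The fibroblast marker Lum was at 0 in all Sham and all PAN+Pio libraries.

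Cell division genes summed to 47.0 to 94.3 CPM in Sham, 233 to 396 in PAN, 30.6 to 51.7 under PAN+MP and 63.8 to 117 under PAN+Pio, and 7 of 7 rose in PAN and fell under each drug. Macrophage markers summed to 71.4 to 102 CPM in Sham, 124 to 171 in PAN, 51.0 to 99.1 under PAN+MP and 59.2 to 92.0 under PAN+Pio. Of 6 tested macrophage markers, 3 were higher in PAN, 4 were lower under PAN+MP and 3 were lower under PAN+Pio. Endothelial markers summed to 5804 to 8346 CPM in Sham and 4017 to 6317 in PAN, with 6 of 8 lower in PAN and 0 changed under either drug against PAN. Of 9 podocyte markers, 1 rose and 3 fell in PAN, and against PAN 2 rose in PAN+MP and 1 in PAN+Pio. The part of these cell types in the results on the members and on the other Wnt pathway genes was not tested.

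Of the Dkk genes, Dkk2 and Dkk3 passed the minimum. Dkk1, the best known Lrp5 and Lrp6 antagonist, and Dkk4 did not, with at most 7 reads in any library. Dkk3 measured 1.85, 3.14, 1.53 and 2.34 CPM in Sham and 3.14, 3.30, 4.73 and 3.47 CPM in PAN. In PAN+MP it measured 3.30, 3.73, 2.79 and 3.26 CPM, and in PAN+Pio 3.32, 3.99, 4.89 and 5.19 CPM. PAN overlapped Sham through 1 Sham library, and every PAN+Pio library lay above every Sham library. In PAN+Pio against Sham 1 of the 21 members had non-overlapping groups, where 13.2% of all genes did.

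Dkk3 rose in PAN against Sham by 0.73 ± 0.22 (1.66-fold, adjusted p = 0.0327) and stood higher in PAN+Pio than in Sham by 0.98 ± 0.22 (1.97-fold, adjusted p = 0.0223). PAN+MP against Sham gave 0.57 ± 0.22 (adjusted p = 0.101), and PAN+Pio against PAN+MP gave 0.41 ± 0.22 (adjusted p = 0.652). Neither drug group differed from PAN by the test, with -0.16 ± 0.22 for PAN+MP (adjusted p = 0.750) and 0.25 ± 0.22 for PAN+Pio (adjusted p = 0.662). The size of the PAN change ranged from 0.56 to 0.94 when single libraries were left out, and its call was lost without Sham library 1 (adjusted p = 0.0968), 3 (0.0978) or 4 (0.0567), without PAN library 3 (0.136) or 4 (0.0557), and with only the 2 groups in the fit (0.0939). The PAN+Pio call against Sham was lost when Sham library 1 (0.0782) or 3 (0.0605) or PAN+Pio library 3 (0.0618) or 4 (0.0695) was left out. With the proximal tubule level as a covariate the PAN change was 0.62 (adjusted p = 0.0529).

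Dkk2 measured 206, 262, 337 and 223 CPM in Sham and 251, 409, 334 and 418 CPM in PAN. In PAN+MP it measured 209.8, 209, 312 and 272 CPM, and in PAN+Pio 244, 263, 357 and 221 CPM. The groups overlapped. PAN against Sham gave 0.46 ± 0.20 (adjusted p = 0.117), PAN+MP against PAN -0.49 ± 0.20 (adjusted p = 0.157) and PAN+Pio against PAN -0.38 ± 0.20 (adjusted p = 0.380).

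The authors' deposited table gives a value for 19 of the 21 tested members and calls 3 of them for PAN against control. In the authors' deposited table these are Sfrp2 (log2 fold change 0.83, adjusted p = 1.22e-04), Dkk3 (0.54, adjusted p = 0.0411) and Wnt11 (-0.84, adjusted p = 0.0264). For PAN relative to PAN+MP the authors' deposited table calls Sfrp2 (0.79), Fzd2 (-0.78) and Wnt11 (-1.47), and for PAN relative to PAN+Pio it calls Sfrp2 (0.75). For PAN+Pio against control the authors' deposited table calls Dkk3 (0.80) and Fzd5 (-0.55). Each of these deposited fold changes was smaller in size than its edgeR value. For Dkk2, uncalled in PAN relative to PAN+Pio, the deposited value was 0.06, where edgeR gave -0.38 for PAN+Pio against PAN. How the deposited values were estimated was not stated, so these differences in size are given without a reading.

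Beyond the members, 97 other Wnt pathway genes were tested of 113 listed. In PAN against Sham 15 were higher and 16 lower, 32% of the list beside 18.9% of all genes, with a median log2 change of -0.11. In PAN+MP against PAN 3 were higher and 5 lower, which is 8.25% beside 8.62%. In PAN+Pio against PAN 2 were higher and 4 lower, 6.19% beside 3.68%. Against Sham, 12 were higher and 13 lower in PAN+MP, 25.8% beside 12.7%. In PAN+Pio 8 were higher and 7 lower than in Sham, 15.5% beside 5.08%. With the proximal tubule level as a covariate these 25 and 15 genes became 9 and 5, where 4.04% and 2.84% of all genes were called. Between the drugs 0 were called, beside 0.633%. The PAN against Sham count of 31 fell to 18 without Sham library 1 and to 16 without PAN library 3, where 11.8% and 11.5% of all genes were called. The 8 called in PAN+MP against PAN became 3 without PAN library 2, 5 without PAN+MP library 2 and 4 without PAN+MP library 3, where 5.58%, 5.67% and 5.48% of all genes were called. The 6 called in PAN+Pio against PAN became 2 without PAN library 2, 3 without PAN+Pio library 1 and 2 without PAN+Pio library 2 or 4, where 1.69%, 2.46%, 1.6% and 2.21% of all genes were called. The list was chosen with earlier results of these data known.

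Of 6 other secreted regulators, 3 rose and 1 fell in PAN, 66.7% of this short list beside 18.9% of all genes. Frzb, a further secreted frizzled-related protein also known as Sfrp3, measured 15.8 ± 0.386 CPM in Sham, 30.8 ± 5.52 in PAN, 22.9 ± 5.38 under PAN+MP and 18.8 ± 1.67 under PAN+Pio. It rose by 0.96 ± 0.15 in PAN (adjusted p = 3.93e-04) and fell by 0.71 ± 0.15 in PAN+Pio against PAN (adjusted p = 0.0137). Wif1, a Wnt-binding inhibitor, rose by 1.39 ± 0.27 (adjusted p = 0.00213), and Sost, an Lrp5 and Lrp6 antagonist, rose by 1.84 ± 0.47 (adjusted p = 0.0134). Rspo1, an R-spondin that strengthens Wnt signalling, fell by 1.75 ± 0.56 (adjusted p = 0.0396).

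In the secretion list of only 4 genes, 3 rose in PAN, 75% beside 18.9% of all genes. Wls, the carrier that brings Wnt ligands to the cell surface, rose by 0.34 ± 0.11 (adjusted p = 0.0362), and the trafficking genes Tmed5 and Vps35 rose by 0.42 and 0.34. None of the 3 changed under either drug by the edgeR test.

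Among 15 coreceptors and receptor regulators, 2 rose and 1 fell in PAN, 20% beside 18.9% of all genes. Ryk, a Wnt-binding receptor, rose by 0.28 ± 0.08 (adjusted p = 0.0285). Gpc3, a glypican that binds Wnt ligands, rose by 1.54 ± 0.27 (adjusted p = 0.00109), and it was also higher than Sham in PAN+MP (1.81 ± 0.27, adjusted p = 0.00173) and PAN+Pio (1.92 ± 0.28, adjusted p = 0.00138). Ptk7, a coreceptor of the polarity branch, measured 88.6 ± 14.3 CPM in Sham, 56.0 ± 7.48 in PAN, 109 ± 12.3 under PAN+MP and 85.2 ± 7.94 under PAN+Pio. It fell by 0.66 ± 0.12 in PAN (adjusted p = 0.0017) and rose against PAN by 0.97 ± 0.13 in PAN+MP (adjusted p = 9.39e-05) and 0.60 ± 0.12 in PAN+Pio (adjusted p = 0.0129).

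Ror2, a receptor for Wnt5a, fell against PAN by 0.65 ± 0.15 in PAN+MP (adjusted p = 0.0138) and by 0.60 ± 0.15 in PAN+Pio (adjusted p = 0.0413). Lgr4, a receptor for R-spondins, rose by 0.54 ± 0.12 in PAN+MP against PAN (adjusted p = 0.0103). The coreceptors Lrp5 (0.04 ± 0.12, adjusted p = 0.863) and Lrp6 (-0.19 ± 0.09, adjusted p = 0.160) passed no test in PAN against Sham.

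In the intracellular list of 32 genes, 2 rose and 9 fell in PAN, 34.4% beside 18.9% of all genes. The 2 that rose were Ctnnbip1, an inhibitor of beta-catenin binding to Tcf factors (0.50 ± 0.11, adjusted p = 0.00466), and Pygo1, a nuclear cofactor (0.70 ± 0.16, adjusted p = 0.00731). The 9 that fell included Bcl9, a beta-catenin cofactor (-0.91 ± 0.17, adjusted p = 0.00144), and the Tcf factors Tcf7 (-0.76 ± 0.19, adjusted p = 0.0114), Tcf7l1 (-0.65 ± 0.19, adjusted p = 0.0271) and Tcf7l2 (-0.55 ± 0.15, adjusted p = 0.0217). The beta-catenin gene Ctnnb1 gave 0.08 ± 0.09 (adjusted p = 0.573) and Lef1 gave -0.45 ± 0.28 (adjusted p = 0.276). Chd8, Csnk1d, Amer1 and Tle1 completed the 9 with Btrc, at -0.27, -0.22, -0.34 and -0.46. Tle3, a corepressor of Tcf factors, fell by 0.41 ± 0.12 in PAN+MP against PAN (adjusted p = 0.0358). Btrc, part of the ligase that marks beta-catenin for degradation, fell by 0.42 in PAN and rose by 0.37 ± 0.10 in PAN+Pio against PAN (adjusted p = 0.0481). Dact3, an inhibitor that acts on Dishevelled, fell by 0.85 ± 0.19 in PAN+Pio against PAN (adjusted p = 0.0209).

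Of 22 target genes, 5 rose and 2 fell in PAN, 31.8% beside 18.9% of all genes, so the called genes did not move one way. Bambi, a TGF-beta pseudoreceptor, rose by 0.52 ± 0.10 (adjusted p = 0.00286), Ephb3, an ephrin receptor, by 0.75 ± 0.16 (adjusted p = 0.00363) and Cd44, a hyaluronan receptor, by 0.58 ± 0.16 (adjusted p = 0.0215), each with all 4 PAN libraries above all 4 Sham libraries. Axin2, a widely used canonical target, measured 6.96 ± 1.47 CPM in Sham, 4.67 ± 0.526 in PAN, 6.76 ± 0.837 under PAN+MP and 4.97 ± 0.425 under PAN+Pio. It fell by 0.58 ± 0.16 in PAN (adjusted p = 0.0176) and rose by 0.53 ± 0.16 in PAN+MP against PAN (adjusted p = 0.0433), while PAN+Pio against PAN gave 0.09 ± 0.16 (adjusted p = 0.860). The drug groups differed by -0.44 ± 0.16 for PAN+Pio against PAN+MP, which missed the threshold (adjusted p = 0.348).

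Nkd2, a feedback inhibitor, rose by 1.03 ± 0.31 in PAN (adjusted p = 0.0298), and its relative Nkd1 gave 0.07 ± 0.23 (adjusted p = 0.855). Twist1, a transcription factor, fell by 0.69 ± 0.19 in PAN+MP against PAN (adjusted p = 0.0348). Fosl1, an AP-1 subunit, rose by 1.46 ± 0.48 in PAN (adjusted p = 0.0462) and fell against PAN by 2.91 ± 0.54 in PAN+MP (adjusted p = 0.00231) and by 2.35 ± 0.52 in PAN+Pio (adjusted p = 0.0189). Fosl1 had 45 reads or fewer in any library, with 1 to 9 in PAN+MP. Of 24 polarity and calcium genes, 0 rose and 4 fell in PAN, namely Plcb1, Mapk8, Vangl2 and Prickle1. This is 16.7% of the list, near the 18.9% of all genes. Daam1, a formin of the polarity branch, fell by 0.35 ± 0.10 in PAN+MP against PAN (adjusted p = 0.0369).

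**Figure D4:**
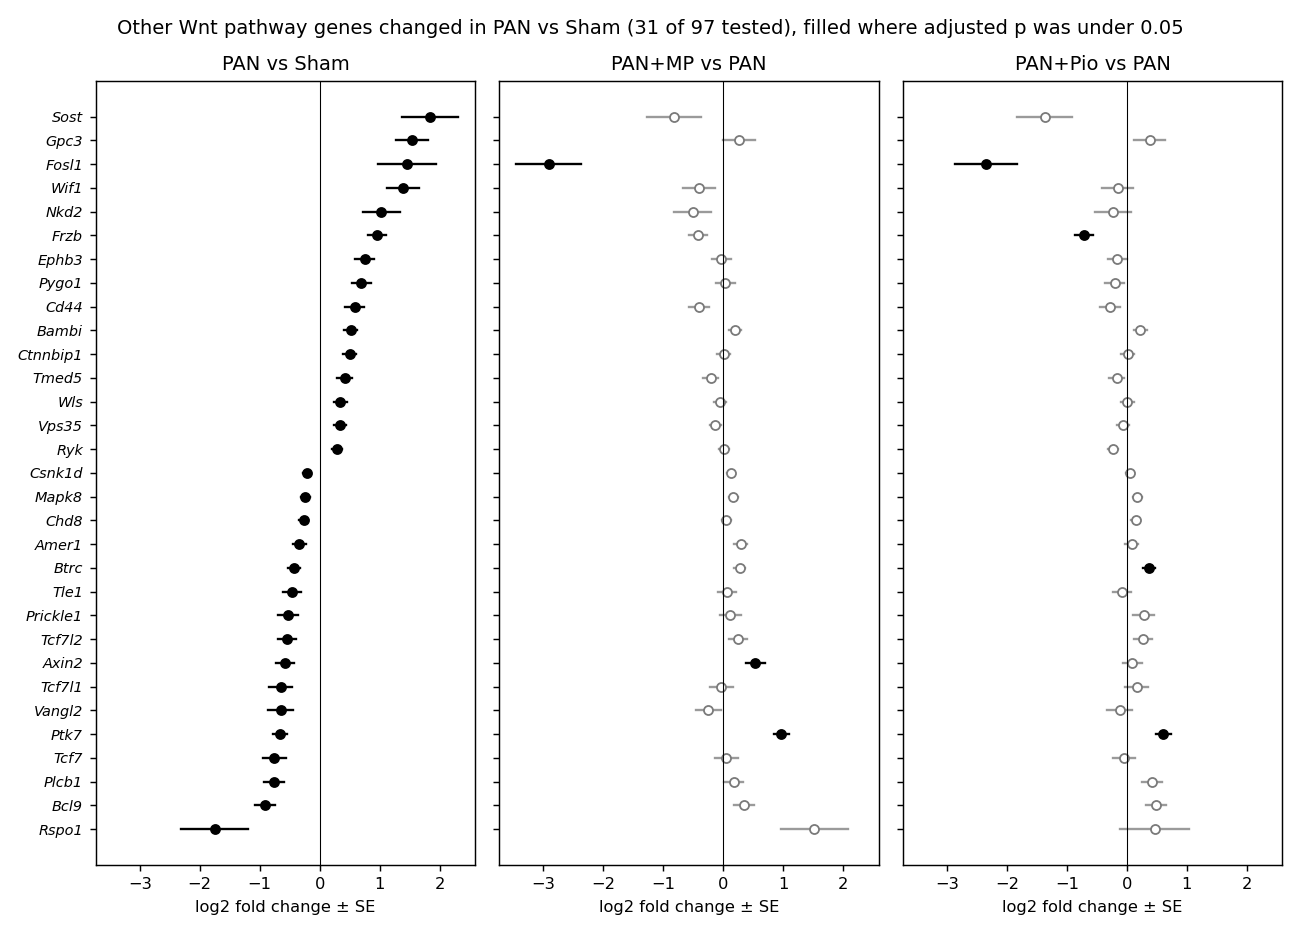
Log2 fold change ± SE (x axis) of the 31 other Wnt pathway genes called in PAN against Sham, shown for that comparison, PAN+MP against PAN and PAN+Pio against PAN, which share the PAN libraries. Filled points had an adjusted p under 0.05, and under the drugs these are Fosl1, Axin2 and Ptk7 for PAN+MP and Fosl1, Frzb, Btrc and Ptk7 for PAN+Pio.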

How the data were processed

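RNA of isolated glomeruli was sequenced from directional libraries (350 ng of RNA, with ribosomal and globin transcripts removed), per the labels' protocols. The submitters' processing notes name cutadapt, STAR, HTSeq 0.6.1p1, DESeq2 and Rnor_6.0, without the role of each. The deposited table gives raw read counts per gene, whole numbers for 16 libraries. The authors' deposited log2 fold changes and adjusted p-values were used for description and were not recomputed. A further 16 normalized columns were not used.

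Columns were assigned to groups by name. The PAN columns carry the word high, which the labels do not explain, and the columns carry no replicate numbers. The labels describe separate rats, 4 per group.

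The tests used edgeR 4.0.16 in R 4.3.3, with filterByExpr with a minimum count of 10, TMM factors of 0.952 to 1.05 and 1 quasi-likelihood model with a term per group and 12 residual degrees of freedom. P-values were adjusted by Benjamini and Hochberg over 17061 genes. SE is the log2 fold change over the square root of F. The biological coefficient of variation was 19.4%. DESeq2 1.42.0, RLE factors, other filters, only the groups compared, a tubule covariate and libraries left out were the alternatives. Intervals of fold changes come from the edgeR fit and include the spread between rats, while the floor of 3 reads covers counting error only.

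Values by library are given for members called in any comparison and for the member with the highest mean CPM in each family. Pathway genes named were called in PAN against Sham or a drug group against PAN, with Ctnnb1, Lrp5, Lrp6, Axin2, Lef1 and Nkd1 named regardless. Members and lists were chosen with earlier results of these data known. Promoters are from RefSeq tables of GRCr8, matched by symbol for 26 of 37 members, and are of another build than the counts. Marker lists covered podocyte, mesangial, endothelial, parietal, tubule, fibroblast, macrophage, adipocyte and cell division genes. In PAN against Sham 1 of 5 parietal markers fell, and 0 of 12 proximal tubule and 0 of 10 distal nephron markers were called. The uncalled proximal tubule markers had a median log2 change of 0.69 in that comparison. Of 3 tested adipocyte markers 1 rose, at summed levels of 0.991 to 3.55 CPM in PAN.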

Additional observations from a re-analysis of the deposited data

Results flagged for a closer look

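In 8 of the 84 member and group combinations, 1 of 4 libraries stood apart from the other 3 by Dixon's test at its 95% critical value, where chance gives about 1 in 20. For Fzd4, PAN library 3 measured 72.3 CPM and the others 56.5 to 57.3. For Fzd6, PAN library 2 measured 36.3 CPM and the others 29.3 to 30.4. For Wnt5a, PAN library 1 measured 12.5 CPM and the others 7.62 to 8.45. For Wnt11, Sham library 4 measured 1.40 CPM and the others 0.783 to 0.885. For Wnt9b, PAN+MP library 1 measured 6.88 CPM and the others 3.17 to 3.57. The column names of Sham library 2 and PAN+Pio library 3 carry an extra tag. Fzd8 measured 1.72 CPM in Sham library 2 and 4.01 to 4.44 in the others. In PAN+Pio library 3, Sfrp1 measured 2.73 CPM and the others 4.40 to 4.68, and Wnt9b measured 3.18 CPM and the others 5.19 to 5.56. Leaving out both tagged libraries kept the 3 Sfrp2 calls.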

How the results depend on the processing

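No paired analysis was possible because the count columns carry no replicate numbers. The Sfrp2 calls against PAN, and the Fzd2 and Wnt11 calls in PAN+MP against PAN, were kept under all 23 alternatives, with leave-one-out ranges of 0.79 to 1.09 (PAN against Sham), -0.95 to -0.77 and -0.92 to -0.75 for Sfrp2, 0.82 to 1.03 for Fzd2 and 1.37 to 1.91 for Wnt11. Uncalled Sfrp2 differences from Sham changed sign when single libraries were left out, with ranges of -0.093 to 0.21 for PAN+MP (negative when Sham library 1 or 4 or PAN+MP library 3 was absent, at -0.03, -0.093 and -0.04) and -0.069 to 0.23 for PAN+Pio. Wnt11 in PAN against Sham was called with DESeq2, with the tubule covariate (-1.33, adjusted p = 0.0342) and without PAN library 4 (0.0452) or PAN+Pio library 4 (0.0472). Leaving out 1 library at a time gave 1 to 3 members called in PAN against Sham (1 when Sham library 1 or 4 or PAN library 3 was absent), 0 to 1 in PAN+MP against Sham and 0 to 1 in PAN+Pio against Sham. Without Sham library 3, the calls in PAN against Sham included a member other than Sfrp2, Dkk3 and Wnt11. With only the groups compared, 1 member was called in PAN against Sham and 0 in PAN+Pio against Sham, where DESeq2 called 2. Without both tagged libraries 2 members were called in PAN+MP against Sham, Dkk3 and Fzd2. The Dkk3 call in PAN+Pio against Sham was lost without Sham library 1 (0.0782) or 3 (0.0605), without PAN+Pio library 3 (0.0618) or 4 (0.0695), and with only those groups (0.0655). For the other Wnt pathway genes, leaving out 1 library gave 16 to 37 in PAN against Sham, 3 to 11 in PAN+MP against PAN, 2 to 6 in PAN+Pio against PAN, 12 to 29 in PAN+MP against Sham, 3 to 18 in PAN+Pio against Sham and, comparing the drugs, 0 to 1. With only the groups compared there were 19 in PAN against Sham, 6 in PAN+Pio against Sham and, comparing the drugs, 1, where DESeq2 called 1. DESeq2 called 14 in PAN+MP against PAN. The tubule covariate gave 9 in PAN+MP and 5 in PAN+Pio against Sham, and for the latter no filter gave 8 and leaving out both tagged libraries gave 8. The cause of these changes was not tested. Counts of 50 or fewer reads limit the 6 scarce ligands.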
